A study of Homo sapiens with 12 samples.

Results

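OVCAR8 is an established human ovarian carcinoma line, and the description below concerns what set its transcriptome apart from 3 other carcinoma lines. The 3 OVCAR8 RNA-seq libraries were compared with the 9 libraries of MDA-MB-231 and HCC1954, both breast cancer lines, and SKOV3, a second ovarian cancer line, 12 libraries in all. A gene was counted as high in OVCAR8 when its lowest OVCAR8 library held at least 1 CPM (counts relative to the library total, scaled by TMM, edgeR's library-size correction) and at least 4 times the highest of the other 9 libraries. It was counted as absent when each OVCAR8 library held at most 3 counts and each of the other 9 at least 1 CPM. Of the 34909 genes with a count in any library, 550 were high and 32 were absent.

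The study asked how a point mutation of the apoptosis regulator SIVA acts in cancer cells. In every line the 3 libraries were a control, cells overexpressing wild-type SIVA (SIVA-WT) and cells overexpressing the mutant (SIVA-D160N), with 1 library each. The labels call the control parental with no treatment, whereas the study describes it as carrying the empty expression vector (EV, the name used here). The lines were grown in RPMI-1640 with fetal bovine serum, and the constructs were driven by a CMV promoter and held by hygromycin selection of stable polyclonal transfectants. Thus the 3 OVCAR8 libraries are 3 derivatives of 1 line and not 3 ovarian tumors. A p-value below measures only the spread between such derivatives, pooled over all lines, that remains once shifts shared by an arm are removed. OVCAR8 libraries held 37938618 to 38629881 counts and the others 35791455 to 45890398. SIVA1 stood at 65.7 CPM in OVCAR8 EV, 175 in SIVA-WT and 160 in SIVA-D160N, and in every line the control held the least SIVA1, with 0 counts in HCC1954 EV.

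Ovarian carcinomas of the common high-grade serous type are thought to arise from fallopian tube or other Mullerian-type epithelium, and the transcription factor PAX8 is the usual marker of that lineage. Cell lines also keep or acquire programs foreign to their tissue, such as genes normally restricted to germ cells or neurons, and can lose loci altogether. In bulk RNA a lower level can mean fewer cells with a transcript or less of it per cell, and the 2 cannot be told apart.

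Sequence is shown for 4 genes whose state in OVCAR8 was the opposite of that in every other library. UBB and LPCAT1 were absent in OVCAR8, and PRSS21 and NDN were high with 0 counts elsewhere. The 250 bases before the first start listed for each gene in the RefSeq promoter table are given 5′ to 3′ on the strand of the gene (assembly GRCh38.p14), with CG dinucleotides, the target of DNA methylation at promoters, in capitals. They lie at chr17:16381040-16381289 on the plus strand (UBB), chr5:1523961-1524210 on the minus strand (LPCAT1), chr16:2816987-2817236 on the plus strand (PRSS21) and chr15:23687306-23687555 on the minus strand (NDN). The UBB window lies inside the span of the gene given below, downstream of that span's first base, whereas the other 3 windows end at the boundary of their gene.
UBB: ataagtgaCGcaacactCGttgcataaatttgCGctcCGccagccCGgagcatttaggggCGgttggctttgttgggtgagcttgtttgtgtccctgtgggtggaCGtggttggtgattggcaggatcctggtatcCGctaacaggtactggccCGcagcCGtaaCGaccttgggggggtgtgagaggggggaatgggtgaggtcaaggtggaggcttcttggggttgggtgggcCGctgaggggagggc
LPCAT1: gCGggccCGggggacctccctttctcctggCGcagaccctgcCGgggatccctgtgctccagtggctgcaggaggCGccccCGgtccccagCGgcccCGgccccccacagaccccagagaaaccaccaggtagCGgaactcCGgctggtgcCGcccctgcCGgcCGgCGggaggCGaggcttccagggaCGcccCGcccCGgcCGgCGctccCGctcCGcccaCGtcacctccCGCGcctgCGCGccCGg
PRSS21: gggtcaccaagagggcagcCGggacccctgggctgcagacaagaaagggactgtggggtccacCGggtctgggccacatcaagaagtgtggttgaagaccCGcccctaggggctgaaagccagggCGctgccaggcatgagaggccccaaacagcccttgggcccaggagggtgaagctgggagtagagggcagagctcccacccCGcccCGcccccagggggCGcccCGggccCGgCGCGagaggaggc
NDN: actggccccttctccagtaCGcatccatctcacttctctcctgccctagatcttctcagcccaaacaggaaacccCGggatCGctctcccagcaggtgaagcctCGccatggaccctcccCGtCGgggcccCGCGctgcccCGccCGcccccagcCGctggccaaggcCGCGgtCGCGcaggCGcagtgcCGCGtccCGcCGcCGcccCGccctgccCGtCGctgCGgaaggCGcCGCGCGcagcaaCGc
The UBB window held 12 CG, LPCAT1 28, PRSS21 11 and NDN 30, and 93.6% of all 27305 promoter windows of that length held at least 1. Among the 12996 promoters of tested genes in the table, 26.2% held as few CG as UBB or fewer, 77.5% as few as LPCAT1, 23.7% as few as PRSS21 and 82.7% as few as NDN. These shares refer to tested genes only, and nothing is read from 4 picked windows about either list. A comparison of the lists for CG content is void, because only 24 of the 32 absent and 354 of the 550 high genes have a promoter in the table. Methylation was not measured in these libraries.

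PAX8 did not single out OVCAR8. It stood at 75.7, 66.9 and 60.6 CPM in OVCAR8 EV, SIVA-WT and SIVA-D160N, at 229 to 242 in SKOV3 and at 1.54 to 3.44 in the breast lines. The 2 ovarian lines were thus apart from the breast lines without overlap, and SKOV3 was the higher of them. In the quasi-likelihood test of edgeR, adjusted by Benjamini-Hochberg, the log2 difference of OVCAR8 was 4.51 ± 0.18 (SE) from MDA-MB-231 (adjusted p = 2.9e-09), 5.00 ± 0.18 from HCC1954 (adjusted p = 7.96e-10) and -1.82 ± 0.15 from SKOV3 (adjusted p = 7.47e-07). Over the 15738 genes with at least 1 CPM in 3 libraries, the rank correlation of levels between OVCAR8 libraries was 0.993 to 0.997, against 0.84 to 0.866 with MDA-MB-231, 0.806 to 0.834 with SKOV3 and 0.749 to 0.775 with HCC1954. The OVCAR8 libraries therefore lay closer in rank order to a breast line than to the other ovarian line, as a description across genes that are not independent.

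Each line was then contrasted with OVCAR8 over the 19204 genes that passed the filter on low counts, calling a gene at an adjusted p under 0.05 and a log2 difference of at least 1.5. OVCAR8 was higher than MDA-MB-231 for 3014 genes (15.7% of those tested) and lower for 2040 (10.6%). It was higher than HCC1954 for 3195 (16.6%) and lower for 3401 (17.7%), and higher than SKOV3 for 3033 (15.8%) and lower for 2943 (15.3%). The genes called against all 3 lines in 1 direction numbered 1109 higher (5.77%) and 543 lower (2.83%). These 2 shares are the background for the gene lists that follow, in which "higher" and "lower" mean called against each of the 3 other lines. Each list also has a median log2 difference in level, OVCAR8 minus the other 9 libraries with low counts set to 3, which was -0.04 over all genes tested. This median pools the 3 other lines, so a gene present in only 1 of them also counts as a difference.

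Of 15 tested markers of Mullerian epithelium and ovarian carcinoma, 3 were higher and 1 was lower, with a median log2 difference of -2.14. That median does not mean a deficit against each line. KLK6, KLK7 and KLK8 had 0 counts in OVCAR8, MDA-MB-231 and SKOV3 and at least 14.8 CPM in each HCC1954 library. SOX17 was at 7.07 to 9.37 CPM in SKOV3 and had 0 counts in both breast lines. MSLN (mesothelin, a cell-surface antigen of ovarian carcinoma and mesothelium) stood at 104, 108 and 84.8 CPM in the 3 OVCAR8 libraries, at 4.72 to 7.52 in SKOV3 and at most 0.405 in the breast lines. The kidney and Mullerian factor PAX2 was called higher at only 1.06 to 1.57 CPM. CLDN6, a fetal claudin, was called higher at 11 to 27 counts per OVCAR8 library. Its difference from SKOV3 (adjusted p = 0.00671 in edgeR) lay at the size required, and the call was lost with limma-voom (smallest log2 difference 1.41) and without OVCAR8 EV (1.27), OVCAR8 SIVA-WT (1.3), SKOV3 EV (1.25), SKOV3 SIVA-WT (1.48) or MDA-MB-231 SIVA-D160N. MECOM, a zinc-finger transcription factor often gained in ovarian cancer, was the lower one, with 0 counts in each OVCAR8 library. Other defining markers of the lineage were not called: WT1 stood at 5.85 to 6.77 CPM in OVCAR8 and at 5.49 to 8.01 in HCC1954, SOX17 was at 3 counts or fewer, and so were the genes of the serum marker CA-125 (MUC16) and of estrogen receptor alpha (ESR1).

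Among 15 tested breast lineage markers, 1 was higher and 1 lower, with a median log2 difference of -1.45. The higher one was PGR, the progesterone receptor, at 10.1, 13.9 and 13.4 CPM in OVCAR8 and at most 0.0792 CPM in any other library, the breast lines included. The lower one was KRT15, a keratin of basal epithelial cells, at 0.598 to 0.908 CPM against at least 4.96 elsewhere. GATA3 and FOXA1, luminal transcription factors, were at 5.63 to 6.24 and at 2.2 to 3.16 CPM in OVCAR8 and were highest in HCC1954.

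Epithelial identity was partial. None of 32 tested junction and keratin genes was higher and 2 were lower (median log2 difference -2.09). HCC1954 weighs on this median: KRT6A, for example, was at 33.2 to 190 CPM there and had 0 counts in the other lines. KRT19, a simple-epithelium keratin, had a total of 1 count over the 3 OVCAR8 libraries and at least 0.883 CPM in each other library. KRT81, a hair keratin, stood at 0.0783 to 0.163 CPM against at least 7.76. The keratins of simple epithelium KRT8 and KRT18 were nevertheless abundant, at 1690 to 2030 and 1120 to 1430 CPM in OVCAR8, between HCC1954 above and SKOV3 and MDA-MB-231 below. KRT7 (416 to 492 CPM) and EPCAM (18.5 to 21.1 CPM) also lay between them, whereas CLDN4 (0.761 to 1.33 CPM) was under both HCC1954 and MDA-MB-231. CDH1 (E-cadherin) was at 0.19 to 0.47 CPM in OVCAR8 and was as low in SKOV3 (0.134 to 0.491) and MDA-MB-231 (at most 0.0666), so that HCC1954, at 691 or more, was the line that stood apart. In contrast, CDH2 (N-cadherin) was at 172 to 197 in OVCAR8 and at 111 to 147 in SKOV3.

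In the mesenchymal list of 27 tested genes, 2 were higher and 1 lower (median log2 difference 0.72). SPARC, a matrix-binding glycoprotein, stood at 460, 422 and 372 CPM against 88.9 to 151 in SKOV3 and at most 6.61 in the breast lines. COL6A2, a chain of collagen VI, was at 191 to 264 CPM and at most 29.6 elsewhere. COL5A1, a fibrillar collagen V chain, was at 0.109, 0.0783 and 0.0778 CPM and from 14.3 to 1220 elsewhere, so 2 collagen genes were called in opposite directions. VIM (vimentin) was at 2910 to 3230 CPM and was not called, since MDA-MB-231 and SKOV3 held as much.

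**Figure D1:**
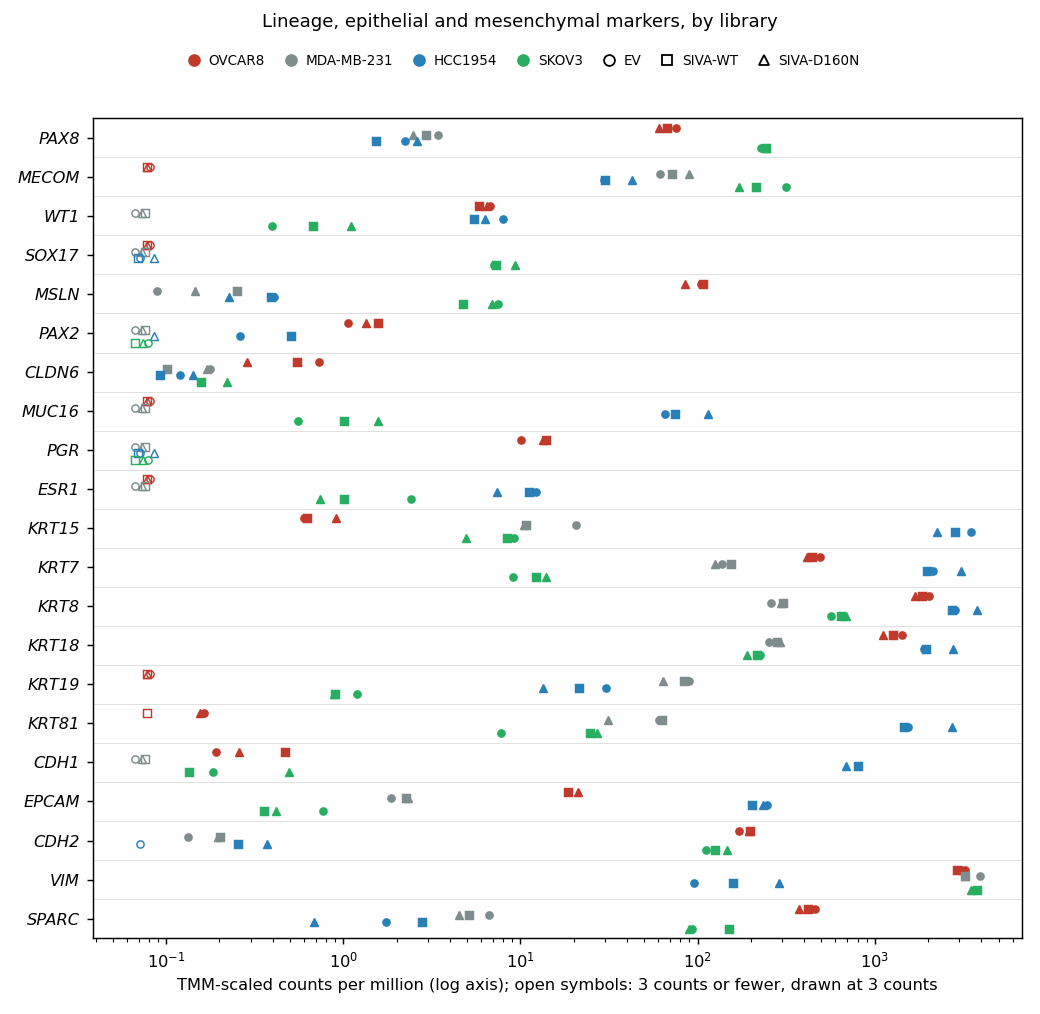
Levels of 21 lineage, epithelial and mesenchymal markers in each of the 12 libraries, in TMM-scaled CPM on a log axis; color marks the line, the symbol marks the arm, and open symbols are libraries with 3 counts or fewer, drawn at 3 counts. The OVCAR8 libraries of PAX8 lie between SKOV3 and the breast lines, those of MSLN, PGR and SPARC lie above every other library, and those of MECOM and KRT19 lie at the floor.

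Homeobox genes of the HOX clusters, which mark position along the body axis, contained 6 higher members of 34 tested and 0 lower (median log2 difference 2.03). HOXC8 was at 9.92, 11.1 and 11 CPM in OVCAR8 and at most 1.79 elsewhere, and its neighbor HOXC4 was at 9.93 to 11.2 and at most 2.84. HOXD13, the last gene of its cluster and normally a gene of the limb and genital region, was at 13 to 13.4 CPM in OVCAR8, at 4.12 to 4.24 in SKOV3 and at 1 count in all in the breast lines. HOXA4, HOXC5 and HOXD10 were called as well but held 43 counts or fewer in each OVCAR8 library, and HOXC5 overlaps HOXC4 in the annotation. The call of HOXC5 was lost in DESeq2, and in edgeR without MDA-MB-231 EV (smallest log2 difference 1.92), MDA-MB-231 SIVA-WT (1.88) or OVCAR8 SIVA-WT (2.11). No gene of the HOXB cluster was called: HOXB6 was at 6.64 to 7.1 CPM in OVCAR8 and averaged 135 in SKOV3.

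Of the receptors for growth signals, 5 of 49 tested receptor tyrosine kinases were higher and 1 was lower, with a median log2 difference of -0.02. FLT4, the receptor for lymphangiogenic VEGF-C, stood at 65.1, 73.9 and 61.2 CPM in OVCAR8 and at most 0.851 CPM elsewhere. EPHB1, an ephrin receptor, was at 17.6 to 19.6 CPM and at most 3.49 elsewhere. PDGFRB, ROR2 and FLT3 were also higher, at 6.22 to 7.33, 4.35 to 6.76 and 1.45 to 1.63 CPM. ERBB4 was lower, with a total of 1 count in OVCAR8, but its lowest other library held only 0.069 CPM. That call was lost without OVCAR8 EV or SIVA-WT (log2 difference from HCC1954 -2.57 in both cases) and without HCC1954 EV (-2.74), and at an adjusted p limit of 0.01. ERBB2, the receptor amplified in HCC1954 and SKOV3, was at 68.9 to 77.4 CPM in OVCAR8 against at least 5710 in those 2 lines.

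Of 13 tested ABC drug transporters, 3 were higher and 1 lower (median log2 difference 0.00). ABCA3, a lipid transporter, stood at 136, 142 and 126 CPM in OVCAR8 and at 3.12 to 12.1 elsewhere, which gave a log2 difference of 4.32 ± 0.33 from MDA-MB-231 (adjusted p = 5.09e-07). ABCB1, the P-glycoprotein efflux pump of multidrug resistance, was at 4.32, 4.36 and 4.93 CPM against at most 1.58 elsewhere. Its neighbor ABCB4, a phospholipid transporter, was at 1.11 to 1.36 CPM, and ABCC3, an organic anion pump, was lower at 0.104 to 0.182 CPM against at least 4.4.

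Secreted signals were called in both directions. Of 26 tested cytokines and chemokines, 6 were higher and 3 lower (median log2 difference -0.17). IL18, an inflammasome cytokine, stood at 244, 211 and 227 CPM and at most 52 elsewhere, and IL32 at 72.5 to 85.3 CPM and at most 4.88 elsewhere. CXCL5, CCL20 and TNF were higher at lower levels, 6.88 to 10.4, 3.48 to 7.63 and 1.24 to 1.85 CPM. IL1B was called higher, but its EV library of OVCAR8 (5.41 CPM) lay under the EV library of MDA-MB-231 (11 CPM) and under OVCAR8 SIVA-WT (38.4) and SIVA-D160N (32). The IL1B call (log2 difference from MDA-MB-231 2.42 ± 0.76, adjusted p = 0.0154 in edgeR) was lost without MDA-MB-231 SIVA-WT (1.95) or SIVA-D160N (2.08) and without OVCAR8 SIVA-WT (1.87) or SIVA-D160N (1.66), with limma-voom (1.7) and at an adjusted p limit of 0.01. LIF, CSF1 and CXCL8 were lower. LIF, a cytokine of the IL-6 family, stood at 9.86 to 11.9 CPM against at least 33.7. CSF1, the macrophage growth factor, stood at 2.91 to 5.72 CPM against at least 20.3, and CXCL8 reached 2.18 CPM in OVCAR8 SIVA-D160N, above the 2.07 of MDA-MB-231 SIVA-D160N, and its call was lost without MDA-MB-231 EV (log2 difference -1.47).

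Among WNT, BMP and TGF-beta ligands and antagonists, 6 of 33 tested were higher and 3 lower (median log2 difference -0.98). Secreted antagonists were found among both the higher and the lower members. GREM1, a BMP antagonist, stood at 76.5, 153 and 201 CPM in OVCAR8 and at most 0.0245 elsewhere. CHRDL1, a second BMP antagonist, was at 58.9 to 61.8 CPM and at most 0.589 elsewhere, and CHRD (chordin) was at 3.37 to 5.04 and at most 0.874. DKK3, of the Dickkopf family, was at 105 to 113 CPM and at most 32.8, and WIF1, which binds WNT ligands, was at 1.24 to 1.41. The ligand WNT10B was higher at 4.77 to 4.93 CPM, a call that was lost without OVCAR8 EV (smallest log2 difference 1.35) or HCC1954 SIVA-WT (1.42). Conversely, DKK1 (20.1 to 34.7 CPM against at least 56.7), WNT7B and TGFB2 were lower. In the insulin-like growth factor list, 2 of 18 were higher and 2 lower (median log2 difference -0.33). IGF2BP1, a fetal RNA-binding protein, stood at 225 to 233 CPM and at most 2.51 elsewhere, whereas its paralog IGF2BP3 was lower at 1.93 to 3.68 CPM against at least 7.77. STC1 was lower as well, and IGF2 was called higher at 14 to 27 counts per library.

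Few growth control genes were called. Of 32 tested tumor suppressors, 0 were higher and 2 lower (median log2 difference -0.45). RB1, which restrains entry into the cell cycle, stood at 8.26, 11.9 and 13 CPM in OVCAR8 and at 47.4 to 129 (median 71.4) elsewhere, with log2 differences of -2.69 ± 0.15, -2.15 ± 0.15 and -3.43 ± 0.15 from MDA-MB-231, HCC1954 and SKOV3 (largest adjusted p = 1.27e-07). NF2 (merlin) was at 1.79 to 3.76 CPM and at least 14.4 elsewhere. None of 27 tested homologous recombination genes and none of 27 tested cell cycle and growth drivers was called in either direction, with median log2 differences of 0.05 and 0.01. BRCA1 came nearest in the first of these, at 25.6, 26.9 and 31.5 CPM against 58.7 to 146, and its log2 difference of -1.40 ± 0.14 from HCC1954 (adjusted p = 2.42e-06) was under the size required.

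B2M, the light chain of MHC class I, was the exception among 16 constitutively expressed genes, of which 0 were higher and 1 lower (median log2 difference 0.21). It stood at 16.9, 14.8 and 16.3 CPM in OVCAR8 and at 358 to 956 CPM (median 605) in the other libraries, with no overlap. The log2 differences were -4.58 ± 0.14, -5.68 ± 0.14 and -5.30 ± 0.14 from MDA-MB-231, HCC1954 and SKOV3 (largest adjusted p = 4.12e-10). No gene of the 17 tested protocadherin beta genes was called (median log2 difference -1.36). Of 24 markers of leukocytes, endothelium and fibroblasts, 16 had at most 3 counts in each OVCAR8 library, among them PTPRC, CD3E, LYZ and DCN. For 10 of the 24 this held in every library of every line. The summed level of the 24 markers was 3.22 to 5.79 CPM in OVCAR8 against 1.67 to 92.1 in the other lines. Of the 7 tested, 1 was called higher (14.3%) and 0 lower, with a median log2 difference of -0.93.

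**Figure D2:**
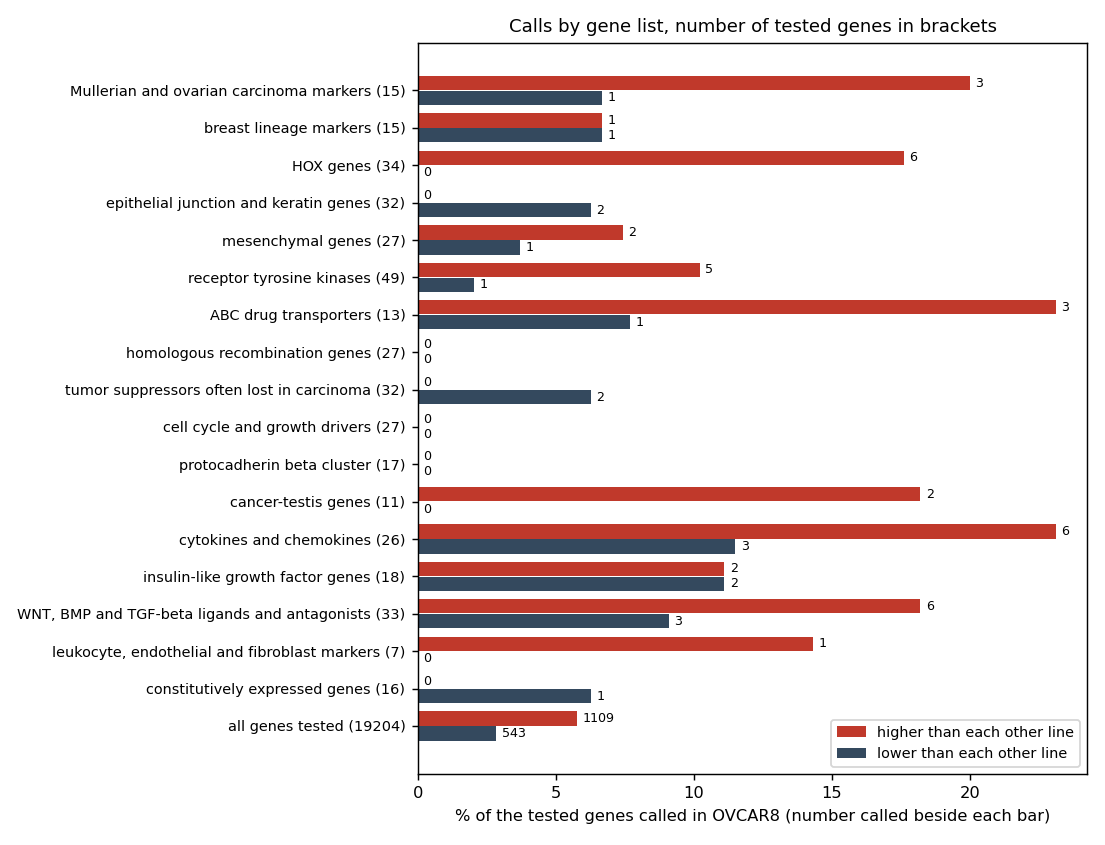
Share of each gene list called higher (red) or lower (dark) in OVCAR8 than in each of the 3 other lines, in percent of its tested genes, with the number called beside each bar and all 19204 tested genes at the bottom. Cytokines and ABC transporters have 23.1% of their tested members called higher against 5.77% of all genes, and the homologous recombination, growth driver and protocadherin lists have no call.

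The 550 high genes were 4.12% of the 13340 genes that held at least 1 CPM in all 3 OVCAR8 libraries, and 442 of them are protein-coding. The threshold fell between NAALAD2 (4.006 times the highest other library) and ADPRH (3.983 times). At least 10 times the highest other library was reached by 361 and at least 100 times by 57, and 47 had 0 counts in all 9 other libraries. The same rule gave 175 genes for MDA-MB-231, 322 for SKOV3 and 700 for HCC1954. These genes were chosen by their values, so their levels are a description.

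Several of the 20 leading genes are known from neurons or from germ cells, as a description of these genes and not of the whole list. NEFH, the heavy neurofilament chain (chr22:29480218-29491390), stood at 458, 364 and 391 CPM in OVCAR8 EV, SIVA-WT and SIVA-D160N and had 1 count in all in the other 9 libraries. INA, a second neuronal intermediate filament, was at 51.2 to 58.7 CPM and at most 0.0715 elsewhere. UCHL1, a ubiquitin hydrolase of neurons and neuroendocrine cells, was at 649 to 783 CPM and at most 0.713 elsewhere. BEX1 (49.9 to 63.8 CPM) and IQSEC3 (73.1 to 79.1 CPM), both known from brain, were at 0 counts and at most 0.069 CPM elsewhere. The lack of overlap with the other lines follows from the rule that chose these genes. The neural progenitor factor SOX1, outside the 20 leading genes and picked with its values in view, stood at 7.42 to 8.86 CPM with 0 counts elsewhere.

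CTCFL, the testis paralog of the insulator protein CTCF (chr20:57495965-57525652), stood at 169, 179 and 198 CPM and had 1 count in all elsewhere. PRSS21, the testis serine protease testisin (chr16:2817237-2821719), was at 201, 181 and 155 CPM with 0 counts in the other 9 libraries, which made it at least 1820-fold higher when each of those is set to 3 counts. STAG3, a cohesin subunit of meiosis, was at 182 to 204 CPM and at most 0.276 elsewhere. On the list of cancer-testis genes, 2 of 11 tested were higher and 0 lower. SYCP1, of the synaptonemal complex, was at 9.08 to 10.8 CPM with 1 count in all elsewhere, and PRAME was at 192 to 229 CPM, at 17.9 to 29.6 in HCC1954 and SKOV3 and at 0 in MDA-MB-231. Of the 37 listed, 34 had at most 3 counts in each OVCAR8 library, the MAGEA genes among them, and the median log2 difference was -1.97. That low state is partly shared, since 12 of the 37 had at most 3 counts in every library of every line. MAGEA, PAGE and SSX genes share near-identical copies, and their counts are uncertain.

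The remaining leading genes act in matrix, lipid and signaling functions. LAMA1, a laminin chain of embryonic basement membrane, stood at 205 to 233 CPM and at most 0.252 elsewhere, and AEBP1, a matrix-associated protein, at 114 to 156 CPM and at most 0.199. GREM1 was described above, and RSPO4, a WNT agonist, was at 38.1 to 48.8 CPM. LPL, lipoprotein lipase, was at 66.8 to 71.8 CPM and at most 0.167 elsewhere. IL1RL2, the IL-36 receptor, was at 36.9 to 39.1 CPM, and PPP1R14A, an inhibitor of myosin phosphatase, at 54.9 to 62.5. ITPRIPL1 (33 to 35.2 CPM), HPDL (26.5 to 30.9 CPM) and STEAP1B (34 to 38.6 CPM) complete the 20 together with NDN and GABRA5, and STEAP1B shares sequence with STEAP1, so that its count is uncertain.

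**Figure D3:**
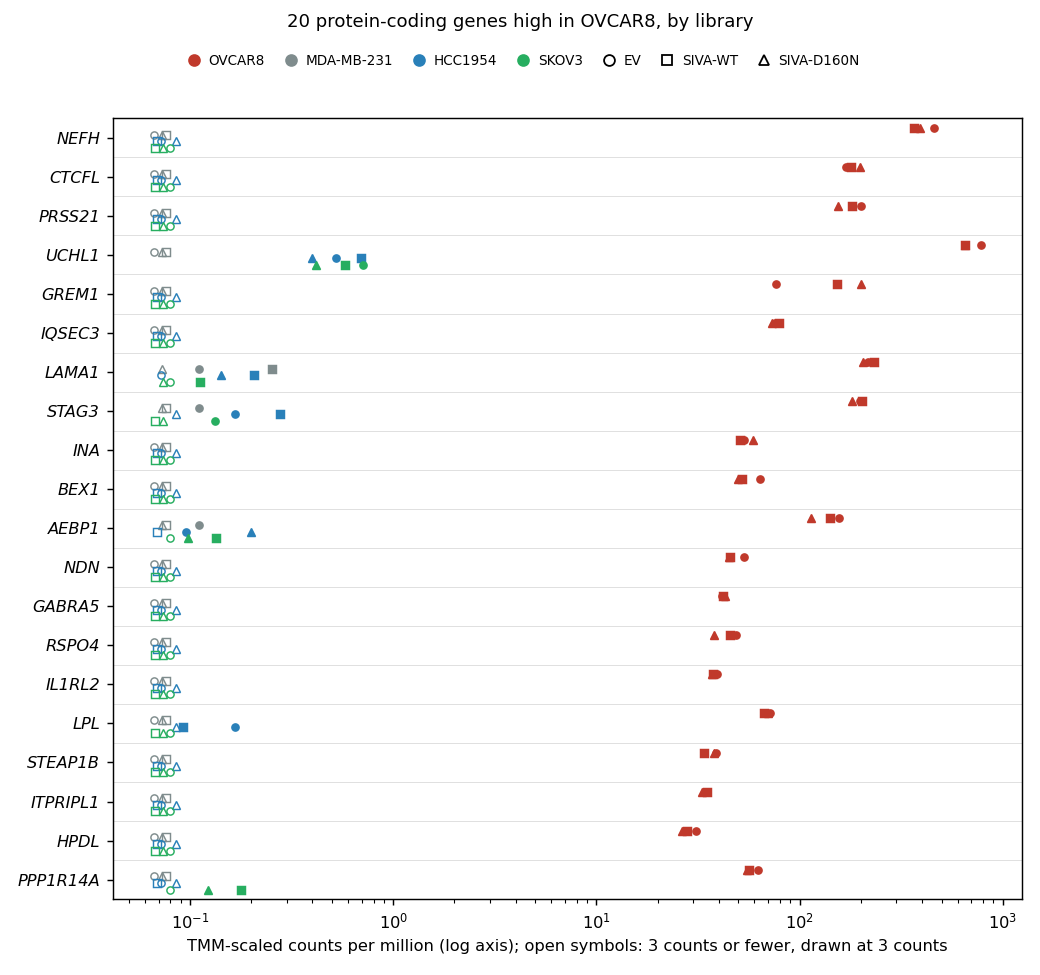
Levels of the 20 leading protein-coding genes high in OVCAR8 in each of the 12 libraries, in TMM-scaled CPM on a log axis; color marks the line, the symbol marks the arm, and open symbols are libraries with 3 counts or fewer, drawn at 3 counts. The OVCAR8 libraries lie between 26.5 and 783 CPM and every other library lies at or under 0.713 CPM.

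Neighboring genes were followed along the genome among the 14916 positioned genes with at least 1 CPM in 3 libraries, of which 809 were at least 2 times above every other library in OVCAR8. There were 15 runs of 3 or more such genes. A pair of them lay in the imprinted Prader-Willi and Angelman region of chromosome 15, where several genes are expressed from the paternal copy alone. In the first run NDN (necdin, chr15:23685400-23687305) stood at 53.2, 45.4 and 45.1 CPM and MAGEL2 at 5.21 to 6.19, both with 0 counts in all 9 other libraries. SNHG14, the long host transcript of that region, was at 179 to 217 CPM, and SNRPN, the gene of a splicing protein, at 4.33 to 5.12, and SKOV3 held 23.9 to 27.9 and 0.564 to 0.686 CPM of them. Both are listed as starting 1.138 Mb from NDN, so SNHG14 and SNRPN overlap in the annotation and are not separate neighbors. MKRN3, the paternally expressed gene next to MAGEL2, was the reverse: it had 0 counts in OVCAR8 and 1.93 to 11.7 CPM in every other library.

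The second run of that region lay in a cluster of GABA-A receptor genes. GABRA5 stood at 41.4, 41.8 and 42.8 CPM and GABRG3 at 11 to 12.4, and no other library held more than 0.0491 CPM of either. UBE3A, the ubiquitin ligase between the 2 runs, was at 93.4 to 124 CPM in OVCAR8 and at 95.4 to 142 elsewhere and was not called. The high state was therefore not shared by all genes of the region.

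The 32 absent genes, all protein-coding, were 0.295% of the 10844 genes with at least 1 CPM in all 9 other libraries. The same rule gave 45 genes for SKOV3, 85 for MDA-MB-231 and 108 for HCC1954. In OVCAR8 24 of the 32 had 0 counts in all 3 libraries and the other 8 had 1 to 3 counts in at least 1 of them. A count of 3 was worth 0.0778 to 0.0815 CPM in the OVCAR8 libraries, so the depth leaves room for a level up to about that, by counting error alone. Just outside the rule lay FOXQ1, with 0.984 CPM in its lowest other library, and the member KCNQ3 had 1.21.

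UBB had the highest level elsewhere. This gene for polyubiquitin (chr17:16380779-16382745) had 2, 2 and 0 counts in OVCAR8 EV, SIVA-WT and SIVA-D160N and 432 to 741 CPM (median 585) in every other library. RPS27A, which encodes ubiquitin fused to a ribosomal protein, was at 904 to 1150 CPM in OVCAR8 and at 551 to 993 elsewhere and was not called. Ubiquitin sequences are alike between genes, and how reads that fit several were counted is not given in the sources used here.

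Several absent genes were enzymes of lipids, DNA repair and lysosomes. LPCAT1, an acyltransferase that makes phosphatidylcholine (chr5:1461427-1523960), had 0 counts in OVCAR8 and 34.6 to 494 CPM (median 133) elsewhere, at least 425-fold lower with OVCAR8 set to 3 counts per library. LPCAT2, its relative, was absent as well, against 2.57 to 67.9 CPM. NEIL3, a DNA glycosylase, had 0 counts against 17.2 to 36.9 CPM (median 26.4), and AGA, a lysosomal amidase, 0 counts against 11.1 to 17.8. PPAP2C (PLPP2, a lipid phosphate phosphatase) had 0 counts against 23.9 to 93.5 CPM. CMBL, a cytosolic hydrolase, had 0 counts against 8.83 to 61.5 CPM.

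Others act in trafficking, guidance, stress and transcription. GOLIM4, a Golgi membrane protein, had 0 counts in OVCAR8 against 26.9 to 117 CPM (median 49.5), and the sorting receptor SORL1 had 0 against 13.2 to 70. The semaphorin receptor PLXNA2 had 3 counts in all against 8.03 to 102 CPM. HSPB8, a small heat shock protein, had 0 against 6.13 to 26.2. The transcriptional regulators MIER2, ZNF175, ZNF69, ZNF486, IRX3 and MSX2 had 0 counts, with 15 to 28.3 CPM of MIER2 elsewhere. MPZL3, LXN, PARP11 and RBPMS had 4 counts or fewer in all, and their lowest other libraries held 3.79 to 5.14 CPM. GPR158, NPIPB15, ARHGEF35, BBS5, SLC40A1 (the iron exporter ferroportin), MALL and KCNQ3 had 1.21 to 2.95 CPM in their lowest other library. NPIPB15 and ARHGEF35 have near-identical copies and are uncertain.

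**Figure D4:**
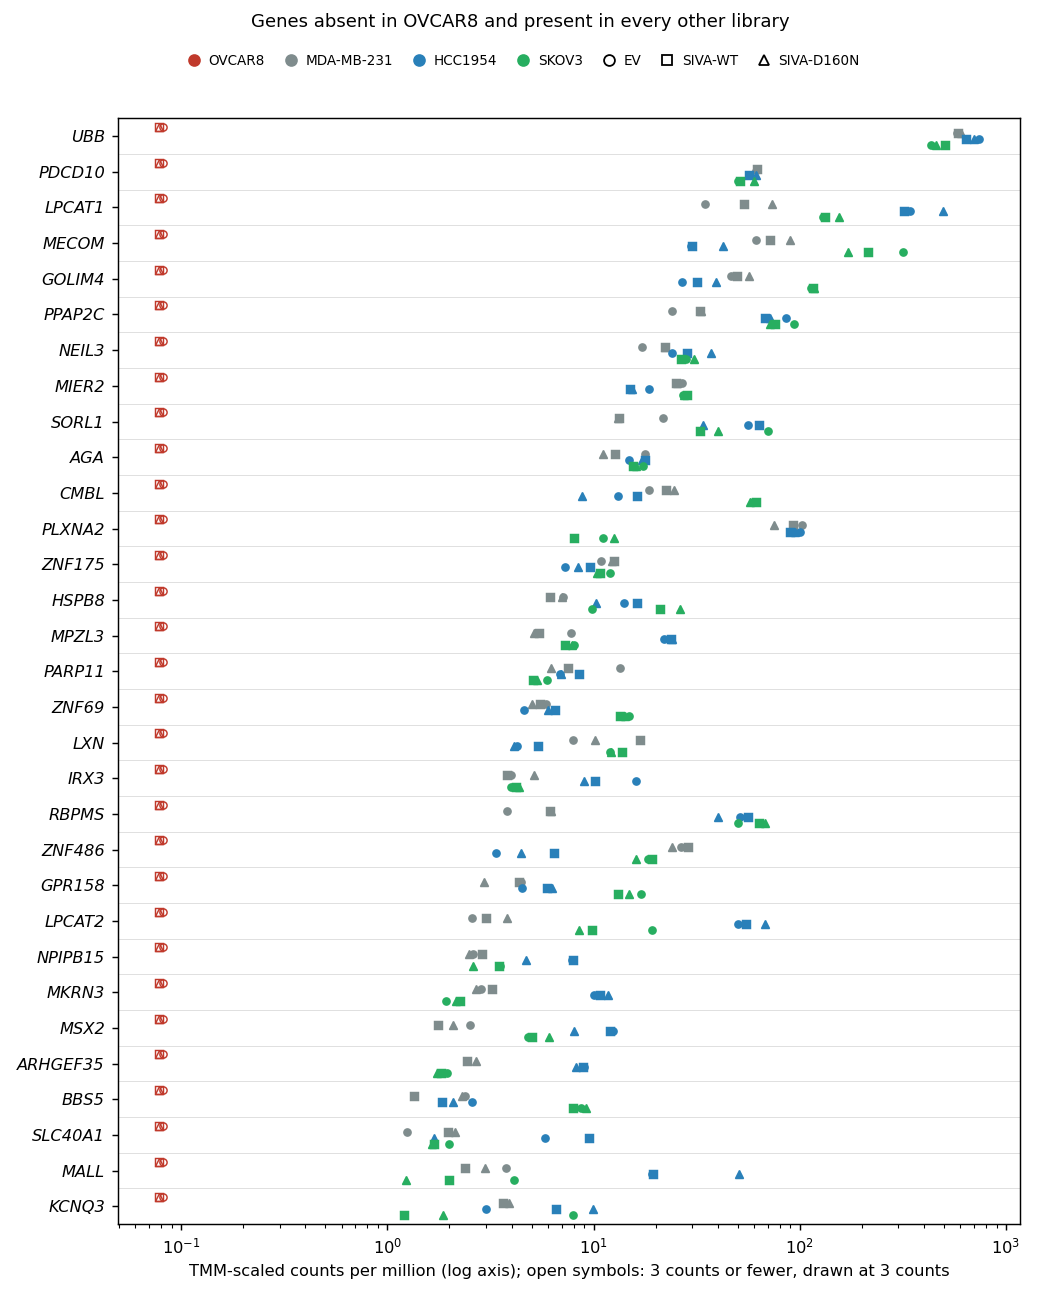
Levels of the absent genes described above in each of the 12 libraries, in TMM-scaled CPM on a log axis; color marks the line, the symbol marks the arm, and open symbols are libraries with 3 counts or fewer, drawn at 3 counts. All OVCAR8 libraries lie at the floor, and the other libraries range from 1.21 CPM (KCNQ3) to 741 CPM (UBB).

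No run of 3 or more adjacent genes was 4 times below every other library, a state that 152 of the 14916 genes in order had, and 9 pairs were. Because such runs are broken by genes that other lines also lack, the stretch of genes with at most 3 counts in each OVCAR8 library was followed outward from each absent gene, a description chosen after the values were seen. The longest began with PDCD10, a scaffold protein of the STRIPAK complex, GOLIM4 and MECOM on chromosome 3. It ran over chr3:163177243-169663712, 6.49 Mb with 18 positioned genes that had a count in any library, and the OVCAR8 libraries held a total of 1 count in them. In 8 of the 18, each library of at least 1 other line held 1 CPM or more. Only PDCD10, GOLIM4 and MECOM were on the absent list. BCHE, before PDCD10 in the order, averaged 17 CPM in SKOV3 and 0 in MDA-MB-231 and HCC1954, so the full length is not particular to OVCAR8. PDCD10 had 0 counts in OVCAR8 and 50.2 to 62.1 CPM (median 59.8) elsewhere, at least 616-fold lower. Its neighbor SERPINI1, a neuronal serine protease inhibitor, had 0 counts against 0.167 to 5.88 CPM, and MECOM 0 counts against 29.6 to 315 CPM (median 71.9). Beyond the stretch the levels of some genes overlapped again with those of other lines. MYNN stood at 21.4 to 24.5 CPM in OVCAR8 against 19.3 to 37.2 elsewhere, and SEC62 at 83.7 to 106 against 84.1 to 153. Farther out, CLDN11 averaged 34.6 CPM in OVCAR8 and at most 0.45 in another line, and TNIK 0.948 against at least 5.97.

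A pair of shorter stretches held 2 absent genes each. On chromosome 4, NEIL3 and AGA lay in a stretch of 0.681 Mb and 4 genes with 0 OVCAR8 counts, between VEGFC (1.33 to 2.07 CPM) and TENM3 (30 to 40.1 CPM). On chromosome 19, PPAP2C and MIER2 lay in a stretch of 0.224 Mb in which the testis gene THEG was also at 0 counts, the OVCAR8 libraries held a total of 17 counts over its 7 genes, and CDC34 beyond it was at 66.1 to 84 CPM. On chromosome 16, LPCAT2 was the single absent gene of a stretch of 0.665 Mb and 11 genes with 0 OVCAR8 counts that held MMP2 and CES1. UBB was the sole gene of its stretch, with CENPV at 35.2 to 41.9 CPM on one side and the pseudogene FTLP12 at 0.0261 to 0.109 CPM on the other. LPCAT1 lay at the end of a stretch of 0.16 Mb and 5 genes with 0 OVCAR8 counts that CLPTM1L bordered at 150 to 191 CPM. CMBL was the sole gene of its stretch, next to CCT5 at 876 to 971 CPM. RNA counts do not show whether a locus is present, and DNA was not analysed here.

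**Figure D5:**
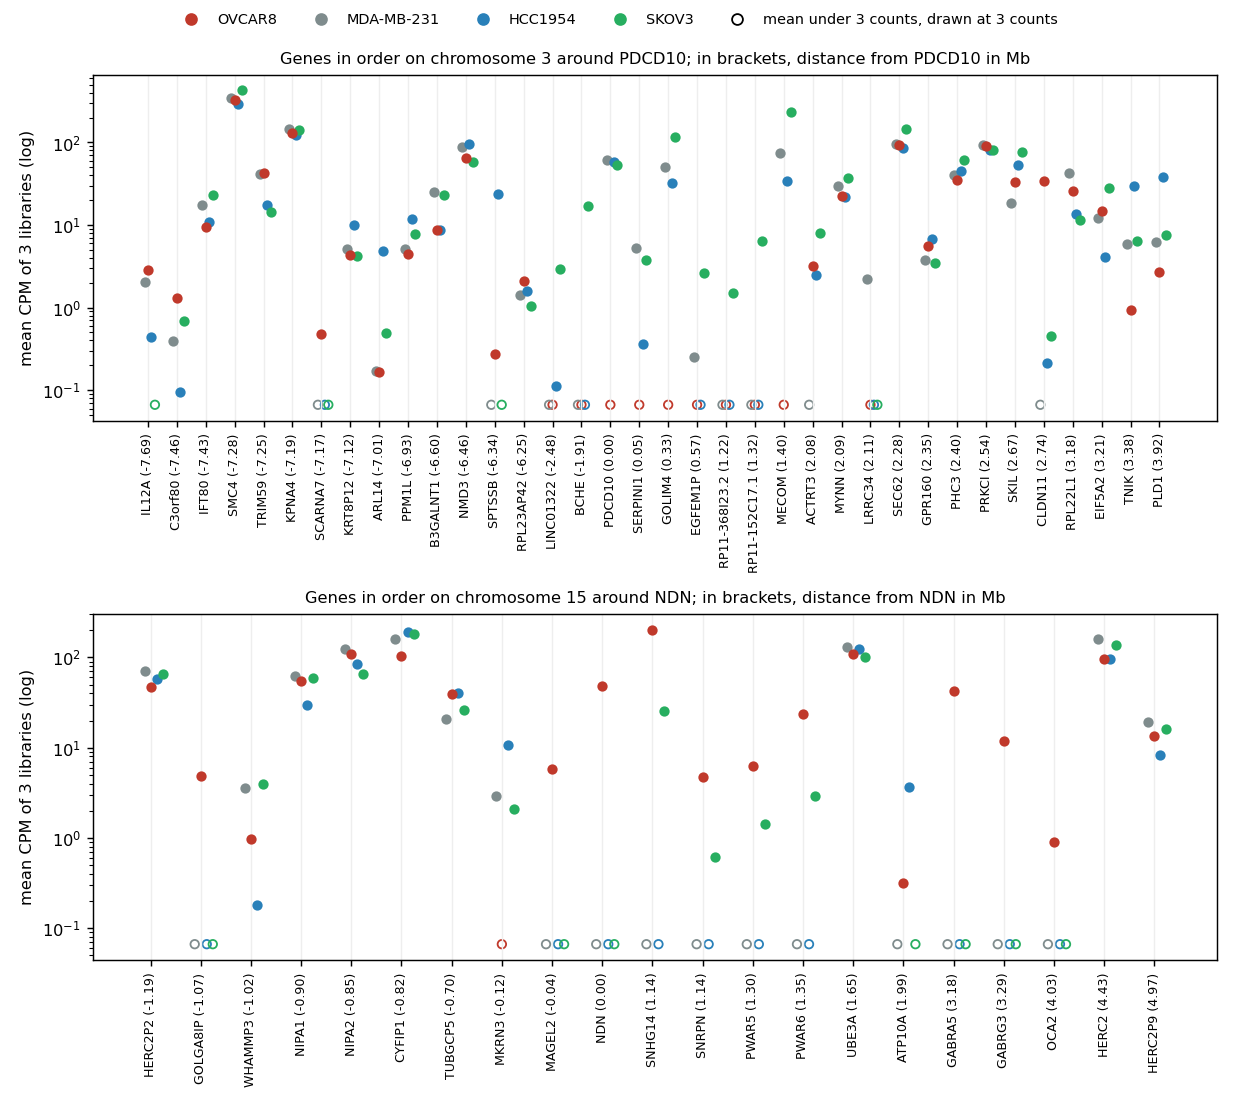
Mean level over the 3 libraries of each line, in TMM-scaled CPM on a log axis, for genes with at least 1 CPM in any library in their order on chromosome 3 around PDCD10 (top) and chromosome 15 around NDN (bottom), with the distance in Mb in brackets; open symbols are means under 3 counts, drawn at 3 counts. In the top panel OVCAR8 is at the floor from LINC01322 to MECOM and within the range of the other lines at MYNN and SEC62, and in the bottom panel it is above them from MAGEL2 to SNRPN and at GABRA5 and GABRG3 and at the floor for MKRN3.

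The high genes differed little between the OVCAR8 derivatives. The highest of the 3 libraries was a median of 1.22 times the lowest over the 550 high genes, against 1.19 over the 13340 genes with at least 1 CPM in OVCAR8. A spread of 2-fold or more was found for 5 of the 550 (0.909%) and for 97 of the 13340 (0.727%). The 5 were GREM1, CCL20, SCG5, AJAP1 and SEMA3D, and in each the EV library was lowest and the SIVA-D160N library highest. Over all 550 the order leaned the other way, with SIVA-D160N lowest for 252 and highest for 124 and EV lowest for 176 and highest for 235. The order of the libraries was not tallied over the 13340 genes, so this lean cannot be called particular to the high genes. GREM1 went from 76.5 to 201 CPM, and SCG5, which lies next to it on chromosome 15, from 14.8 to 31.4. With 1 library per arm this difference was not tested.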

How the data were processed

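Total RNA of 12 cell cultures was sequenced with the Illumina TruSeq Stranded mRNA kit, per the labels. The authors deposited a table of counts, whole-number reads per gene for 57187 genes, with no normalization, and a table of CPM that was not used here. The submitters' processing notes name FastQC, STAR 2.5.3a, edgeR and the build GRCh38; the study took gene counts from STAR's output, and the annotation release and the handling of reads that map to several genes are not given in the sources used here. No column lacked a sample (0). Counts were fitted in edgeR 4.0.16 (R 4.3.3) with TMM scaling and terms for line and arm over all 12 libraries, after edgeR's filter on low counts, and each OVCAR8 contrast was tested by the quasi-likelihood test with Benjamini-Hochberg adjustment over the 19204 genes tested. CPM given in the text were computed from the counts and TMM factors. On simulated counts, 84% of genes with a log2 change of 2 and 100% with 3 were recovered in the contrast of OVCAR8 with each line, and 72% and 95.7% with -2 and -3, over 18341 genes, with 0 false calls. The simulation gave each unchanged gene the same mean in all lines. The absence of false calls therefore says nothing about data in which the other lines also differ from each other. DESeq2 1.42.0 and limma 3.58.1 served as alternatives. No 2 of the 66 pairs of libraries held identical counts.

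Positions came from RefSeq (GRCh38.p14), matched by symbol for 17207 of the tested genes (89.6%), 518 high and all 32 absent genes; genes without a match were left out of runs and stretches. Named genes were PAX8 and SIVA1, the 20 protein-coding high genes with the largest ratio of lowest OVCAR8 to highest other library at 5 CPM or more, the 20 absent protein-coding genes with the highest lowest level elsewhere, called and defining members of the gene lists and genes in runs. Neighbors of absent genes were picked with their values in view, as were list members beyond 4 in a direction. The genes and lists were chosen with earlier results of these data known. Python 3.11.15 and matplotlib 3.10.9 served for tables and figures. Intervals and floors cover counting error only. Some genes are not reported here.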

Additional observations from a re-analysis of the deposited data

How the results depend on the processing

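Over all the alternatives that were planned, 194 of 200 counts of genes stayed within 1.5 times the count given in the text. The exceptions came with the thresholds. At an absolute log2 difference of at least 1 there were 896 genes lower than each other line and 3165 lower than MDA-MB-231. With a gap of at least 2 times, 849 genes were high, and with at least 5 CPM in OVCAR8, 295. Allowing 10 counts in OVCAR8 gave 49 absent genes, and requiring 5 CPM elsewhere gave 16. Leaving out each library in turn gave 1131 to 1204 genes higher and 465 to 565 lower than each other line, 552 to 583 high and 32 to 36 absent genes. The high and absent lists could not shrink in this way, because leaving out a library only relaxes their rules. Their counts are nevertheless part of the 200. DESeq2 called 1024 genes higher and 503 lower, of which 1007 and 489 were also called by edgeR. Of 93 named genes followed, none reversed its direction under the fits. The 93 were leading high or absent genes or list members called in the main fit, so that choice made a reversal unlikely. CLDN6, HOXC5, ERBB4, IL1B, WNT10B and CXCL8 each lost their call under at least 1 of the fits. With a filter of 1 CPM in 3 libraries, CLDN6, HOXA4, HOXC5, HOXD10 and IGF2 were among those no longer tested. The arm, which every line shares, was a term of the model and so blocks the libraries by arm; without it 1103 genes were higher and 545 lower. No pairing by replicate number was made, since the labels give none. The libraries of a line are derivatives of 1 culture lineage, so the calls describe these lines and not tumor types, and a level of 0 counts is bounded only by the depth.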

Other observations

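Beside the low B2M, heavy chains of MHC class I were at levels found in the other lines. HLA-B stood at 214, 202 and 177 CPM in OVCAR8, at 159 to 241 in HCC1954 and at 18 to 84.6 in MDA-MB-231 and SKOV3. HLA-C was at 104 to 129 CPM in OVCAR8 and at 37 to 221 elsewhere. TAP1, the peptide transporter, was at 45.9 to 48.7 CPM and at 22.2 to 170 elsewhere. None of these 3 genes, chosen after the values of B2M were seen, was called against all 3 lines in 1 direction. HLA genes are polymorphic and share sequence, so their counts are uncertain.

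The other runs of at least 3 adjacent genes that were 2 times or more above every other library lay on chromosomes 1, 2, 7, 8, 14, 16 and 17. The longest had 5 genes, SLC9A5, PLEKHG4, KCTD19, LRRC36 and TPPP3 on chromosome 16. The metallothionein genes MT1L, MT1E and MT1M formed a run on the same chromosome, and as near-identical copies they are uncertain. A run on chromosome 2 held POU3F3, a neural homeobox gene at 1.79 to 2.58 CPM in OVCAR8 and at most 0.0284 elsewhere. By chromosome, the share of genes at 1 CPM or more in OVCAR8 that were on the high list was 7.08% on X, 6.71% on 15 and 2.14% on 6, the last being the lowest.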
